A study of Mus musculus with 10 samples.

Results

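The 9 genes described here, Gfap, Vim, Lcn2, Serpina3n, Cd44, Timp1, Osmr, S100a10 and Cd14, are ones that astrocytes switch on when they become reactive. They were followed through the hippocampus of young mice that carry A-CREB or do not, with and without the convulsant kainate. Members were chosen by symbol, with earlier results of these data known. Every probe set (a set of short oligonucleotides on the array that report on 1 transcript) annotated to one of the 9 symbols was taken. This gave 20 probe sets of 45101 on the array, or 9 genes of 18193. Of the 20 probe sets, 17 were bright enough to be tested. The other 3, Cd44 1452483_a_at and 1443265_at and Osmr 1459217_at, fell under a filter on mean signal that kept 27023 probe sets, and their values are given without a test. Each gene kept at least 1 tested probe set.

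Hippocampi of mice aged 3 weeks were pooled, 3 to 4 per RNA sample, and each pool was hybridised to 1 array. There were 5 groups of 2 arrays: A-CREB mice given saline, A-CREB mice given kainate at 14 mg/kg, A-CREB mice given kainate at 18 mg/kg, wild-type mice given kainate at 14 mg/kg and wild-type mice given saline. No wild-type group given 18 mg/kg was analysed here. The A-CREB mice were of the line labelled TetO-A-CREB-95 on a C57BL6 F1/J background, and the wild-type mice, where their labels give a strain, of C57BL6 F1/J. A-CREB is a dominant-negative inhibitor of CREB, the transcription factor that responds to cAMP and calcium, and TetO names a promoter that needs a separate tetracycline-controlled activator. The labels name neither the activator nor the cells that express it, nor the time from injection to dissection. The groups drew on 20 A-CREB and 14 wild-type mice. A pool hides the spread between single mice, so p-values measure the spread between pools. In RNA of whole hippocampus, fewer cells of a type and less RNA per cell cannot be told apart.

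Astrocytes respond to seizures, injury and inflammation by enlarging and by making more of the intermediate filament proteins GFAP and vimentin. They also secrete lipocalin 2, the protease inhibitor SERPINA3N and the metalloproteinase inhibitor TIMP1, and carry more of the hyaluronan receptor CD44 and of the oncostatin M receptor, which signals with gp130 through STAT3. In mouse astrocytes these 7 genes are commonly counted as markers of any reactive state, whereas S100a10 and Cd14 are commonly listed with the A2 type seen after ischaemia. In the brain CD14, a co-receptor for bacterial lipopolysaccharide, is made largely by microglia. In RefSeq (GRCm38.p6) Vim, Lcn2 and Cd44 lie on chromosome 2, S100a10 on 3, Gfap on 11, Serpina3n on 12, Osmr on 15, Cd14 on 18 and Timp1 on X.

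Values are MAS5 signals on a linear scale, and differences are on the scale log2(signal + 22), which lowers the fold of dim genes. A signal depends on the probe set as well as on the transcript, so signals of different probe sets put genes in no order. The 2 arrays of a group carry replicate numbers, and in each pair of values below number 1 comes first. Arrays sharing a number resembled each other across groups: the median signal of an array lay between 94.9 and 106 for number 1 and between 135 and 152 for number 2. Differences were therefore also formed within the numbers, as a replicate block in the limma fit and as 4 pairs of an A-CREB and a wild-type array of the same treatment and number. Summed over the brightest probe set of each gene, the signal of the 9 genes ran from 9910.5 to 11459 on the 4 A-CREB arrays after saline or 14 mg/kg, from 8946 to 10957 on the 2 A-CREB arrays after 18 mg/kg, and from 7056 to 7967 on the 4 wild-type arrays. Such a sum is carried by the brightest genes and does not describe each member. On the A-CREB saline array numbered 1, where it was 11459, Gfap 1426508_at alone read 7148. Another Gfap probe set, 1440142_s_at, read 1347 on that array. The plot of signals by group shows each gene separately.

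**Figure D1:**
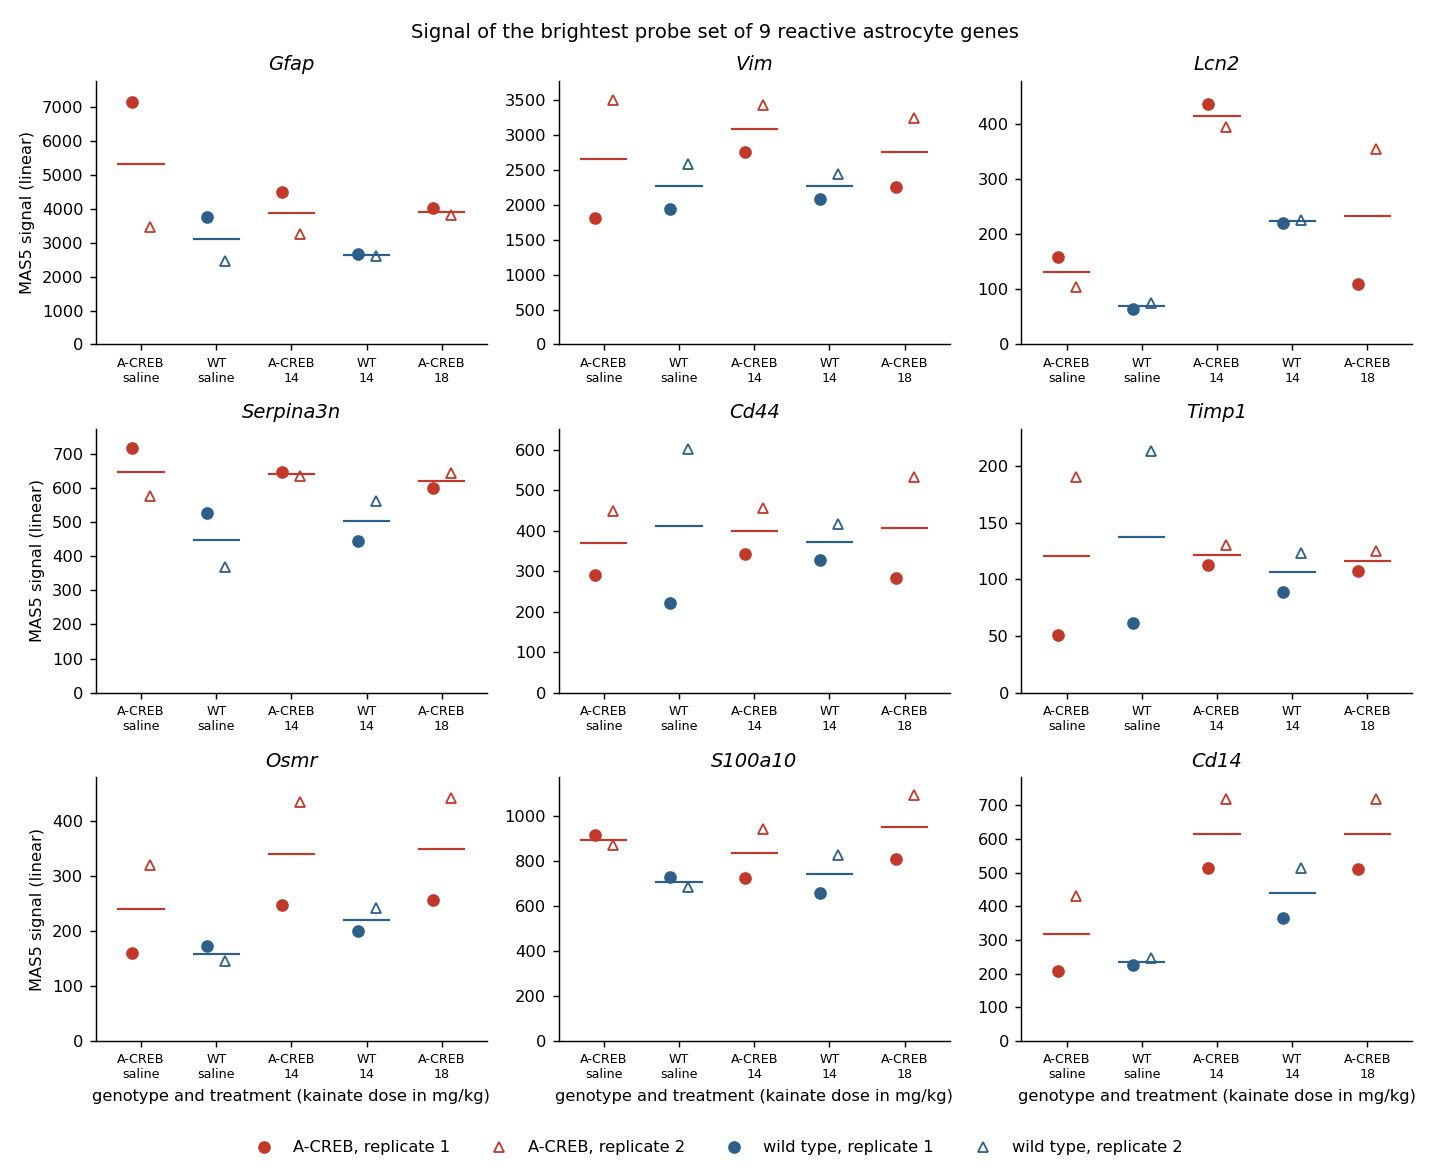
MAS5 signal (linear scale, from 0) of the brightest probe set of each of the 9 genes on the 10 arrays, by genotype and treatment; filled circles are replicate 1, open triangles replicate 2, and bars the mean of 2 arrays. Serpina3n lies between 576 and 718 on the A-CREB arrays after saline or 14 mg/kg, above its 369 to 562 on the wild-type arrays; Lcn2 and Cd14 are higher after kainate at 14 mg/kg than after saline in both genotypes.

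Averaged over saline and 14 mg/kg, the A-CREB minus wild-type difference was above 0 for all 17 tested member probe sets, against 49.4% of all 27023 tested probe sets. The 17 belong to 9 genes, and probe sets of one gene are not independent. The members were chosen with earlier results of these data known, so the background describes them and is no test. The median difference over the 17 was 0.31, against -0.0026 over all probe sets. With quantile normalization or a smaller pseudocount the count was 15 of 17, since Timp1 and the dimmest tested S100a10 probe set had differences close to 0 and fell below it. Leaving out 1 array in turn, between 13 and 17 of the 17 were above 0, with or without the replicate block. Without the block the 13 came on leaving out any one of 4 arrays, A-CREB saline 2, A-CREB 14 mg/kg 2, wild-type 14 mg/kg 1 or wild-type saline 1, and with it on leaving out A-CREB 14 mg/kg 1. No member passed the limma test at an adjusted p of 0.05, where 1 probe set of all tested did (0.0037%), nor with the replicate block, where 2 did (0.0074%). Those were Trat1 1427532_at and a second probe set of Trat1, which is no member. At an unadjusted p under 0.05, 5 of the 17 member probe sets were higher in A-CREB and 0 lower without the block, against a background of 1.07% higher. With the block 10 of the 17, from 6 genes, were higher, against a background of 3.35%. The lowest adjusted p with the block was 0.587, for Gfap. These probe sets differed by more than the spread between pools when taken alone, and none did after adjustment over all probe sets.

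Paired by treatment and number, 5 of the 17 tested probe sets were higher in A-CREB in 4 of 4 pairs, against 7.38% of all probe sets: Gfap 1426508_at and 1426509_s_at, Lcn2, Serpina3n and S100a10 1456642_x_at. Another 10 were higher in 3 of 4 pairs and 2 in 2 of 4, while 0 were lower in all 4, against a background of 7.67%. For 8 of those 10 the pair that ran the other way was saline, replicate 1, and for both Cd44 probe sets it was saline, replicate 2. The 4 pairs share no array, but the 2 pairs of one number share whatever that number marks. The plot of the 4 pairs gives every probe set.

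**Figure D2:**
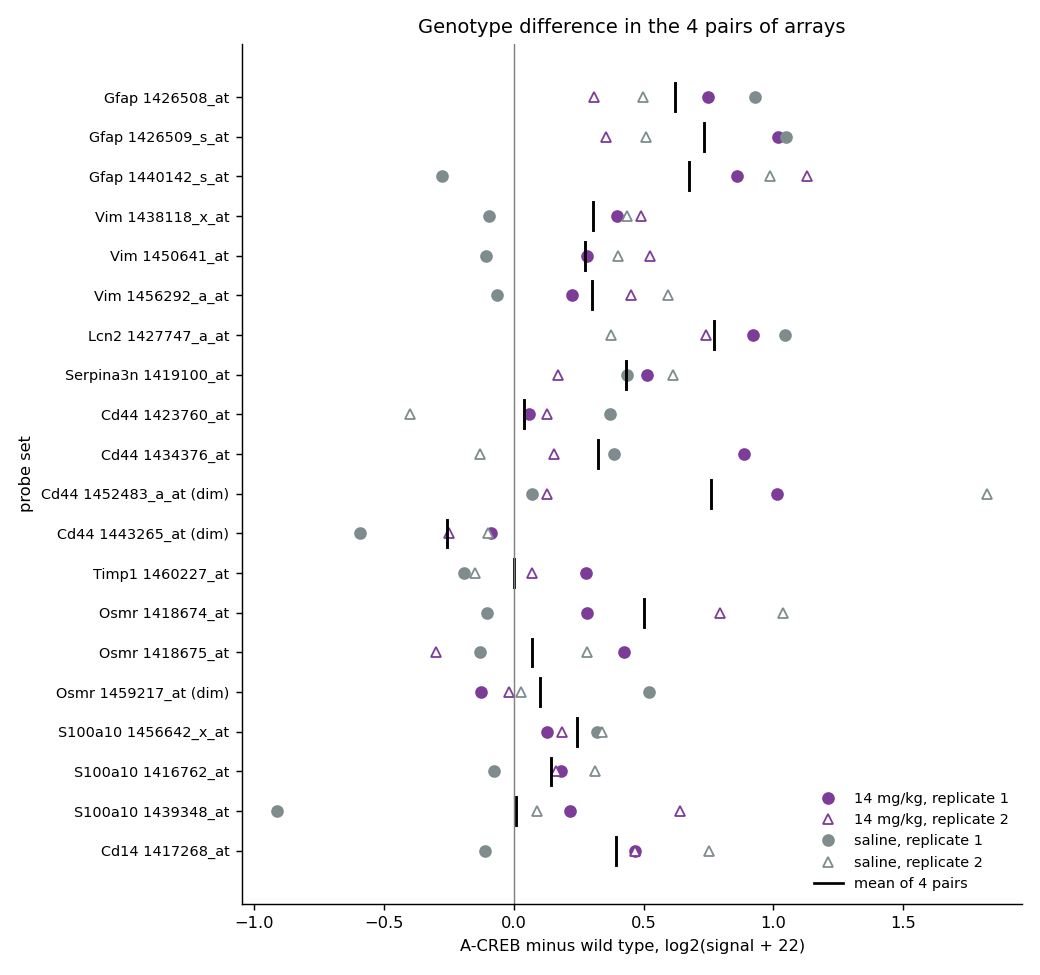
A-CREB minus wild-type difference in log2(signal + 22) for the 20 member probe sets, 1 row each; purple marks are the 14 mg/kg pairs, grey marks the saline pairs, circles replicate 1, triangles replicate 2, and black bars the mean of 4 pairs. All 4 marks lie right of 0 for 5 tested probe sets, and the grey circle (saline, replicate 1) lies left of 0 for Timp1, Cd14, the 3 Vim probe sets, both tested Osmr probe sets and single probe sets of Gfap and Cd44, and for 2 of S100a10; rows named dim were not tested.

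Gfap encodes the main intermediate filament of astrocytes. On 1426508_at it stood at 7148 and 3458 in A-CREB saline, against 3742 and 2446 in wild-type saline. After 14 mg/kg it was 4488 and 3241 in A-CREB, against 2662 and 2615 in wild type, and after 18 mg/kg in A-CREB it was 4005 and 3801. The 2 genotypes did not overlap after 14 mg/kg and overlapped after saline, where the lower A-CREB array fell below the higher wild-type array. The mean difference was 0.62 ± 0.23 (SE of the limma fit), or 1.54-fold. On 1426509_s_at the mean difference was 0.73 ± 0.21, or 1.66-fold, with all 4 pairs above 0.

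The probe set Gfap 1440142_s_at gave a like mean, 0.67 ± 0.21, from a different pattern. It read 1347 and 2722 in A-CREB saline, against 1634 and 1364 in wild-type saline. It read 2593 and 2387 in A-CREB after 14 mg/kg, against 1421 and 1078 in wild type, and 2426 and 2937 in A-CREB after 18 mg/kg. The A-CREB saline array numbered 1 was thus the highest of the 10 on the first 2 Gfap probe sets and among the lowest on 1440142_s_at: the signal of 1426508_at was 5.31 times that of 1440142_s_at there and 1.27 to 2.43 times on the other 9 arrays. Over the 10 arrays the log2 signals of the first 2 probe sets correlated with r = 0.94, and those of 1426508_at and 1440142_s_at with r = 0.23. Without that array the mean difference was 0.36 on 1426508_at, 0.51 on 1426509_s_at and 0.93 on 1440142_s_at in the limma fit with no block, and none passed the adjusted threshold. The mean difference was above 0 in each of these fits, and its size depended on the probe set. How far it depended on that array cannot be read from the fit without it, since the numbers were then uneven. The suffix _s_at marks a probe set whose oligonucleotides match more than 1 transcript, and which transcripts these are was not examined.

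**Figure D3:**
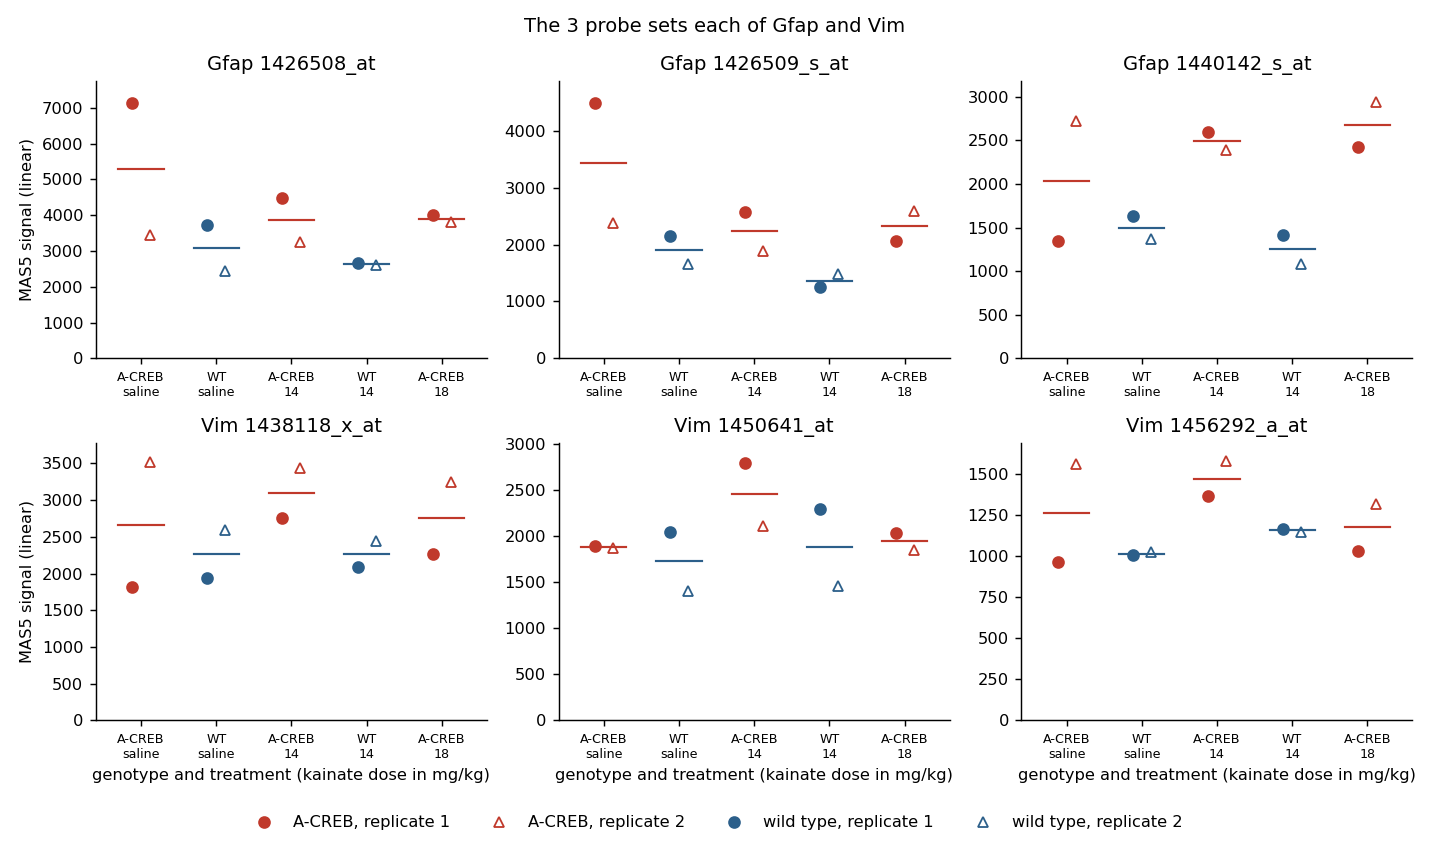
MAS5 signal (linear scale, from 0) of the 3 Gfap and the 3 Vim probe sets on each array, by genotype and treatment; filled circles are replicate 1, open triangles replicate 2, and bars the mean of 2 arrays. The A-CREB saline array numbered 1 reads 7148 on Gfap 1426508_at and 1347 on 1440142_s_at; the order of the 2 replicate numbers differs between Vim 1438118_x_at and 1450641_at.

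Vim encodes vimentin, the filament that pairs with GFAP in reactive astrocytes and is also made by endothelial, mural and ependymal cells. On 1438118_x_at it read 1812 and 3512 in A-CREB saline, against 1939.7 and 2591 in wild-type saline, and after 14 mg/kg 2756 and 3436 in A-CREB, against 2089 and 2442 in wild type. After 18 mg/kg it read 2263 and 3244 in A-CREB. Mean differences on the 3 probe sets were close together, 0.31 ± 0.22 on 1438118_x_at, 0.27 ± 0.18 on 1450641_at and 0.30 ± 0.17 on 1456292_a_at, or 1.21-fold to 1.24-fold. In each of the 3 the saline pair of replicate 1 was slightly below 0, between -0.11 and -0.07, and the other 3 pairs were above 0. Raw signals of 1438118_x_at and 1450641_at ran opposite ways between the replicate numbers (r = -0.02 over the 10 arrays). Once the mean of each number was taken off, they moved together (r = 0.91).

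Among the secreted products, Lcn2 showed the largest mean genotype difference of the tested member probe sets. Lipocalin 2 binds siderophores that carry iron and is released by reactive astrocytes. Lcn2 read 158 and 104 in A-CREB saline, against 65.3 and 75.6 in wild-type saline, so the 2 genotypes did not overlap. After 14 mg/kg it read 437 and 394 in A-CREB, against 220.0 and 227 in wild type, again without overlap. The mean difference was 0.77 ± 0.31, or 1.71-fold, with pairs between 0.37 and 1.04. After 18 mg/kg the 2 A-CREB arrays read 110.2 and 355, one at the level of A-CREB saline and the other near that of 14 mg/kg.

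Serpina3n, a secreted inhibitor of serine proteases, was the only member probe set on which all 4 A-CREB arrays lay above all 4 wild-type arrays, as 0.799% of all probe sets did. It read 718 and 576 in A-CREB saline, against 525 and 369 in wild-type saline. After 14 mg/kg it read 646 and 636 in A-CREB, against 446 and 562 in wild type. The A-CREB arrays after 18 mg/kg, which entered none of these counts, read 598 and 645 and also lay above every wild-type array. The mean difference was 0.43 ± 0.16, or 1.35-fold, with an adjusted p of 0.792 with the replicate block in limma.

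Timp1, an inhibitor of matrix metalloproteinases, did not follow the other secreted products. It read 50.9 and 190.0 in A-CREB saline, against 61.3 and 213 in wild-type saline, and the replicate numbers stood further apart than the genotypes. After 14 mg/kg it read 112 and 130.4 in A-CREB, against 88.7 and 123 in wild type, and 108 and 125 after 18 mg/kg in A-CREB. The mean difference was 0.00 ± 0.42 in the fit without the replicate block, whose SE takes in the spread between the numbers. Within the numbers the 4 pairs lay between -0.19 and 0.28, with a standard deviation of 0.22 and 2 above 0. A difference of either sign thus has room.

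Of the surface receptors, Cd14 read 207 and 429.6 in A-CREB saline, against 225 and 246 in wild-type saline. After 14 mg/kg it read 514 and 718 in A-CREB, against 365 and 513 in wild type, and after 18 mg/kg it read 511 and 720.0 in A-CREB. The groups did not overlap after 14 mg/kg, by a narrow margin, and did after saline. Its mean difference was 0.39 ± 0.24, or 1.31-fold, in 3 of 4 pairs.

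Osmr encodes the subunit of the oncostatin M receptor that joins gp130. On 1418674_at it read 159.7 and 320.3 in A-CREB saline, against 173 and 145 in wild-type saline. After 14 mg/kg it read 247 and 435 in A-CREB, against 199 and 241 in wild type, and 257 and 442 after 18 mg/kg in A-CREB. The difference lay almost wholly in replicate number 2, where it averaged 0.92, against 0.09 in number 1. The dimmer 1418675_at had a mean difference of 0.07 ± 0.42 with 2 of 4 pairs above 0, so the Osmr probe sets did not give the same picture. The untested 1459217_at had a mean signal of 37.1 and pairs between -0.13 and 0.52.

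Cd44 was measured by 4 probe sets. On the brightest, 1423760_at, it read 292 and 449.8 in A-CREB saline, against 221 and 601 in wild-type saline, and 343 and 457 in A-CREB after 14 mg/kg, against 329 and 417 in wild type, with a mean difference of 0.04 ± 0.32. On 1434376_at it read 334 and 328 in A-CREB saline, against 251 and 361 in wild-type saline, and 490.0 and 389 in A-CREB after 14 mg/kg, against 255 and 347 in wild type. There the mean difference was 0.32 ± 0.18 and the groups did not overlap after 14 mg/kg. The 2 dim probe sets pointed opposite ways, with mean differences of 0.76 on 1452483_a_at and -0.26 on 1443265_at. The mean signal of 1443265_at was 4.88, far under the pseudocount.

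S100a10, the partner of annexin A2 that helps to bring membrane proteins to the cell surface, had the smallest spread between pairs of the tested member probe sets on 1456642_x_at. It read 914 and 869.9 in A-CREB saline, against 727 and 683 in wild-type saline, and 721 and 943 in A-CREB after 14 mg/kg, against 658 and 826 in wild type. The 4 pairs lay between 0.13 and 0.34, and the mean difference was 0.24 ± 0.16, or 1.18-fold. On 1416762_at the mean difference was 0.14 ± 0.14. On 1439348_at, the dimmest of the 3, it was 0.01 ± 0.37, with a saline pair of -0.91 in replicate 1, where the A-CREB array read 25.3.

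Promoter sequence was looked at because A-CREB acts on factors that bind the cAMP response element and because reactive genes are commonly driven through STAT3. RefSeq (GRCm38.p6) gave 250 bases before a listed start for 7 of the 9 members, all but S100a10 and Cd14. For Gfap, Vim, Lcn2 and Timp1 the window lies wholly before the gene. For the other 3 that start lies inside the gene bounds given by RefSeq, and the window overlaps the gene by 4 bases for Cd44, 62 for Serpina3n and 250 for Osmr. Both strands were searched for the full element TGACGTCA, its part TGACG, the STAT motif TTCNNNGAA and the AP-1 motif TGANTCA, where TGACGTCA also holds TGACG. Shown are the promoters of Gfap and Lcn2, whose signals differed most by genotype, and of Timp1, whose signals did not, each 5′ to 3′ on the gene's strand with any match in capitals.
Gfap, chr11:102897201-102897450, minus strand: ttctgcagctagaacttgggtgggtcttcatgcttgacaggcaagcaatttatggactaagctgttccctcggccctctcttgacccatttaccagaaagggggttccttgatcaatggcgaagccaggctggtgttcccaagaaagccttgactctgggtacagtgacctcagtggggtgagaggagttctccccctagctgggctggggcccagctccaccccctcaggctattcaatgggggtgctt
Lcn2, chr2:32387740-32387989, minus strand: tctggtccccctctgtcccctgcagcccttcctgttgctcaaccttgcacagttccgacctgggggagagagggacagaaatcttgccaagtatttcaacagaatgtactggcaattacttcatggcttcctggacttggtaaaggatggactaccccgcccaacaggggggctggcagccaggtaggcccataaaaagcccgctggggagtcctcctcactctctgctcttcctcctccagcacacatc
Timp1, chrX:20869916-20870165, plus strand: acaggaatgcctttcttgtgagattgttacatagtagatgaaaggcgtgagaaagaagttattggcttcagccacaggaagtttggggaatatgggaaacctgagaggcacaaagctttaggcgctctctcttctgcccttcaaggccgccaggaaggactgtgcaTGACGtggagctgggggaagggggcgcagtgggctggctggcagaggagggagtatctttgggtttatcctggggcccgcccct
The TGACG in Timp1, which starts 84 bases before the gene start, was the only match of any motif in the 7 windows. Among 32851 promoters of the same length, 17.8% hold TGACG, 1.55% TGACGTCA, 7.02% the STAT motif and 6.75% the AP-1 motif. A match describes letters in a window, and the absence of one says nothing about binding outside it.

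Set apart by treatment, the genotype difference after saline had a median of 0.26 over the 17 member probe sets, with 14 above 0, and after 14 mg/kg a median of 0.43, with 17 above 0. The saline result depended on single arrays, most on the A-CREB saline array numbered 2. Without that array its median was 0.010, with 9 of 17 above 0, or 0.057 and 10 of 17 with the replicate block. Without the wild-type saline array numbered 1, 11 of 17 were above 0 (median 0.30). Without the one numbered 2 the median with the block was 0.13. The 14 mg/kg result had 13 of 17 above 0 without the wild-type array numbered 1 (median 0.33) and 14 without the A-CREB array numbered 2 (median 0.23). Over all tested probe sets 48.9% were above 0 after saline and 50.8% after 14 mg/kg. In limma 0 members passed the adjusted threshold in either treatment, where 0 probe sets of all did (0%). With the block 1 did in each (0.0037%), and again no member was among them. At an unadjusted p under 0.05, 2 member probe sets were higher after saline (background 0.636%) and 2 after 14 mg/kg (background 0.64%). With the block these counts were 3 (background 2.58%) and 7 (background 2.44%). The A-CREB arrays lay above the wild-type arrays without overlap on 4 of 17 probe sets after saline, where 9.96% of all did, and on 12 of 17, from 8 genes, after 14 mg/kg, where 10.9% did. The larger count after 14 mg/kg does not show a larger difference: the difference between the 2 genotype differences had 0 members past the adjusted threshold with limma, with or without the block (0% of all probe sets in both), and 0 at an unadjusted p under 0.05 (background 0.403% without and 1.89% with the block). For Gfap 1426508_at that difference of differences was -0.19 ± 0.46, for Lcn2 0.12 ± 0.63 and for Vim 1438118_x_at 0.27 ± 0.44.

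Kainate itself activates a class of glutamate receptors and provokes seizures. Among the 9 genes, Lcn2 and Cd14 had the largest differences between kainate and saline. In A-CREB, Lcn2 read 158 and 104 after saline, 437 and 394 after 14 mg/kg, and 110.2 and 355 after 18 mg/kg. In wild type it read 220.0 and 227 after 14 mg/kg, against 65.3 and 75.6 after saline. Kainate at 14 mg/kg thus left both arrays well above both saline arrays in each genotype, with a difference of 1.53 ± 0.44 in A-CREB and 1.41 ± 0.44 in wild type. At 18 mg/kg in A-CREB the 2 arrays disagreed, -0.45 in replicate 1 and 1.57 in replicate 2, and the mean was 0.56 ± 0.44. With the replicate block the adjusted p in limma was 0.145, 0.736 and 0.283 for A-CREB at 14 mg/kg, A-CREB at 18 mg/kg and wild type at 14 mg/kg.

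Cd14 in A-CREB read 207 and 429.6 after saline, 514 and 718 after 14 mg/kg, and 511 and 720.0 after 18 mg/kg. In wild type it read 365 and 513 after 14 mg/kg, against 225 and 246 after saline. The differences were 0.97 ± 0.35 at 14 mg/kg and 0.97 ± 0.35 at 18 mg/kg in A-CREB, and 0.82 ± 0.35 in wild type, and in all 3 comparisons the kainate arrays lay above the saline arrays. The adjusted p with the block was 0.0757, 0.115 and 0.231, in limma. The comparisons of the 2 doses in A-CREB share their saline arrays, so their likeness is not independent.

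No member passed the adjusted threshold in any kainate comparison, with or without the block. Of all probe sets, 0.181% passed for A-CREB at 14 mg/kg, 0.0703% for A-CREB at 18 mg/kg and 0.0629% for wild type, and with the block 0.733%, 0.359% and 0.337%. At an unadjusted p under 0.05 and above 0, 2, 1 and 2 member probe sets stood out in the 3 comparisons without the block (backgrounds 2.12%, 1.62% and 1.52%), and 3, 1 and 2 with it (4.4%, 4.14% and 3.5%). Below 0 there was 1 at that p, Gfap 1426509_s_at in A-CREB at 14 mg/kg with the block. Kainate arrays lay wholly above saline arrays on 6 of 17 for A-CREB at 14 mg/kg (background 12.4%), on 3 for A-CREB at 18 mg/kg (12.4%) and on 5 for wild type (9.23%). A call appeared in 4 instances when 1 array was left out of the blocked fit, all chosen after seeing the data. For Lcn2 these were A-CREB at 14 mg/kg without either 18 mg/kg array (adjusted p 0.0161 and 0.0207) and wild type without the first of them (0.043). For Cd14 it was A-CREB at 14 mg/kg without the A-CREB saline array numbered 2 (difference 1.27, adjusted p 0.0444).

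For the other members the kainate differences were smaller or below 0. Gfap 1426508_at differed by -0.38 ± 0.33 between 14 mg/kg and saline in A-CREB, by -0.35 ± 0.33 between 18 mg/kg and saline, and by -0.20 ± 0.33 in wild type, each smaller than 2 standard errors. Gfap 1426509_s_at differed by -0.56, -0.49 and -0.47 in the same order, each with an SE of 0.30. Its pairs in A-CREB were -0.80 and -0.32 at 14 mg/kg and -1.11 and 0.13 at 18 mg/kg, and those in wild type were -0.77 and -0.17. With the block the first of these had an unadjusted p of 0.043 and an adjusted p of 0.503 in limma. The third probe set, 1440142_s_at, differed by 0.37 and 0.47 in A-CREB and by -0.27 in wild type. Vim 1438118_x_at differed by 0.28 ± 0.31, 0.10 ± 0.31 and 0.01 ± 0.31 in the same order. Serpina3n differed by -0.01, -0.05 and 0.17, each with an SE of 0.23. Osmr 1418674_at was above 0 in all 6 pairs, with means of 0.49, 0.53 and 0.42 and an SE of 0.39. The dimmer Osmr 1418675_at was below 0 in A-CREB at 14 mg/kg, replicate 2 (-0.26), and in wild type, replicate 1 (-0.27). It was above 0 in the other pairs. S100a10 1416762_at was above 0 in every pair, and its kainate arrays lay above its saline arrays in each comparison. S100a10 1439348_at had pairs of 1.23 and 0.52 in A-CREB at 14 mg/kg, but 0.10 and -0.03 in wild type. The brightest S100a10 probe set and Timp1 had pairs of both signs in each comparison. Cd44 1434376_at lay above saline without overlap at both doses in A-CREB and not in wild type. The plot of kainate differences shows the brightest probe set of each gene.

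**Figure D4:**
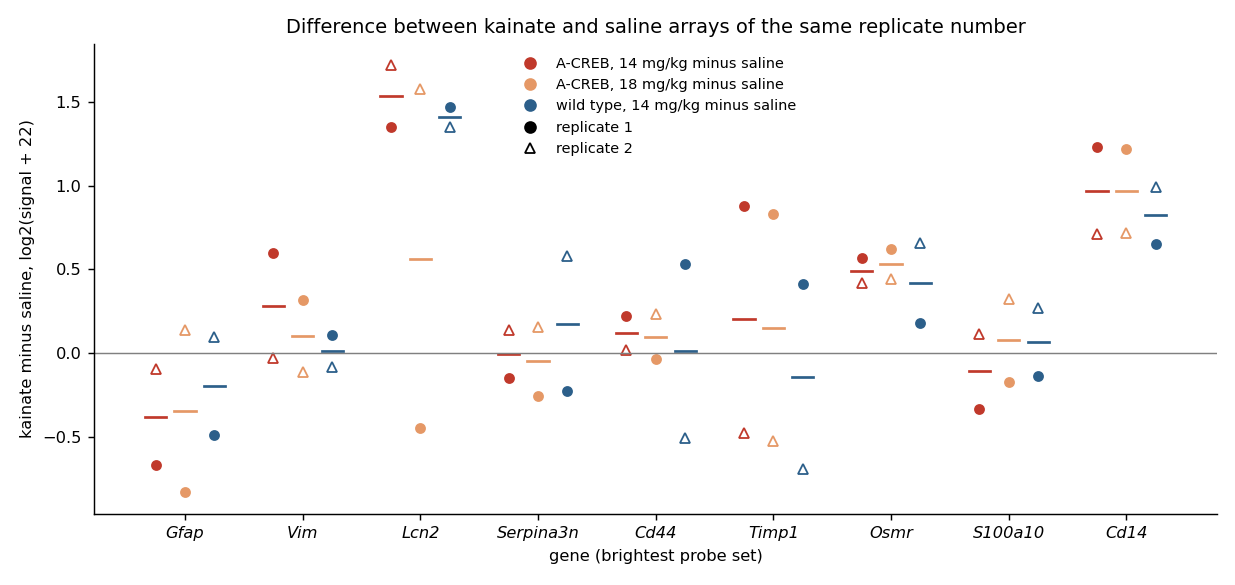
Kainate minus saline difference in log2(signal + 22) between arrays of the same replicate number, for the brightest probe set of each gene; colours are A-CREB at 14 mg/kg, A-CREB at 18 mg/kg and wild type at 14 mg/kg, circles replicate 1, triangles replicate 2, and bars the mean of the 2. Cd14 lies above 0 in all 6 pairs and Lcn2 in 5, the exception being A-CREB at 18 mg/kg, replicate 1 (-0.45); Gfap means lie between -0.38 and -0.20.

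Across the 10 arrays, with the mean of each replicate number taken off, the members did not all run together, as the following description shows. Serpina3n (r = 0.81) and S100a10 1456642_x_at (r = 0.81) ran with Gfap 1426508_at, and Lcn2 did not (r = 0.19). Nor did S100a10 1416762_at (r = 0.19) and 1439348_at (r = -0.43), so the probe sets of S100a10 disagreed. Osmr 1418674_at (r = 0.76), Cd14 (r = 0.69), S100a10 1439348_at (r = 0.69) and Gfap 1440142_s_at (r = 0.91) ran with Vim 1438118_x_at, and Osmr 1418675_at less so (r = 0.33). Gfap 1426508_at and Vim 1438118_x_at themselves correlated with r = 0.15. The arrays share genotype and treatment groups, so these values carry both. Among all tested probe sets with 1 gene, those most like Gfap 1426508_at were Caln1 (r = 0.96), Kalrn (0.95), Cep170 (0.95), Tub (0.94) and Rnf130 (0.93), and those most like Vim 1438118_x_at were Cav2 (0.95), Gbp6 (0.94), Rp2 (0.94), Egfr (0.93) and Ptp4a2 (0.93).

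Other genes of the reactive programme were taken from lists and read at the brightest probe set of each gene. In the same terms the 9 members had a median genotype difference of 0.39, with 9 of 9 above 0, and the 13248 tested genes a median of -0.02, with 44.1% above 0. At an unadjusted p under 0.05 with the block 2.69% of all tested genes were higher in A-CREB, and 5.91% were higher in 4 of 4 pairs. Of 5 other genes of the general reactive list, 4 were above 0, with a median of 0.29 and 0 called in limma (2 at an unadjusted p under 0.05 with the block). Cxcl10, a chemokine that attracts T cells, had 1.15 ± 0.27 with 4 of 4 pairs above 0. Cp, ceruloplasmin, had 0.29 ± 0.20 with 4 of 4, and Aspg and S1pr3 had 0.59 ± 0.46 and 0.28 ± 0.17 with 3 of 4 each. Of 9 tested genes of the A1 type, 7 were above 0 with a median of 0.18 (3 at that p). Iigp1, an interferon-induced GTPase, had 0.87 ± 0.21 and H2-D1, a class I histocompatibility gene, 0.49 ± 0.16, both with 4 of 4 pairs. Gbp2, another interferon-induced GTPase, had 0.59 ± 0.22 and Psmb8, a subunit of the immunoproteasome, 0.40 ± 0.23, both with 3 of 4. Of 10 other genes of the A2 type, 9 were above 0 with a median of 0.25 (0 at that p). Among them Ptx3 had 0.32 ± 0.24 with 4 of 4 pairs, Tm4sf1 0.26 ± 0.16 and Ptgs2 0.24 ± 0.25 with 3 of 4, and Cd109 0.32 ± 0.35 with 2 of 4. None of these lists held a call by genotype, with or without the block.

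Genes around the signal from OSMR to STAT3 had a median genotype difference of 0.04, with 9 of 14 above 0, 1 at an unadjusted p under 0.05 with the block and 0 called. Stat3 had 0.05 ± 0.14 with 2 of 4 pairs, while Cebpd, a transcription factor downstream of STAT3, had 0.43 ± 0.15 and its relative Cebpb 0.34 ± 0.29, both with 4 of 4 pairs. Socs3 had 0.27 ± 0.25 with 3 of 4 and the kinase gene Jak1 -0.11 ± 0.14 with 2 of 4. By kainate, genes of the same lists did pass the test. Socs3, a feedback inhibitor of STAT3 signalling, rose after kainate by 2.18, 1.81 and 1.62 in A-CREB at 14 mg/kg, A-CREB at 18 mg/kg and wild type at 14 mg/kg with the replicate block (adjusted p 0.00279, 0.0148 and 0.0338), but did not pass without it (0.0612, 0.237 and 0.398). Cebpd rose with the block by 0.94 in A-CREB and 1.03 in wild type at 14 mg/kg (adjusted p 0.0297 and 0.0264), and did not pass at 18 mg/kg or without the block. Ptgs2, cyclooxygenase 2, a neuronal activity gene that is also on the A2 list, rose by 3.38, 2.93 and 3.45 in the 3 comparisons (adjusted p 0.0111, 0.0339 and 0.0129 without the block). Ptx3, pentraxin 3, passed with the block in wild type (1.39, adjusted p 0.04), and no gene passed the test of a difference between the 2 genotypes in that response. Binding partners of the members held 0 calls by genotype: the medians were 0.09 for 5 filament partners, 0.06 for 8 partners of LCN2 and TIMP1, 0.08 for 6 partners of CD14, 0.08 for 5 ligands and partners of CD44, and 0.04 for 6 annexin and S100 genes, among them Anxa2 at 0.13 ± 0.22.

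**Figure D5:**
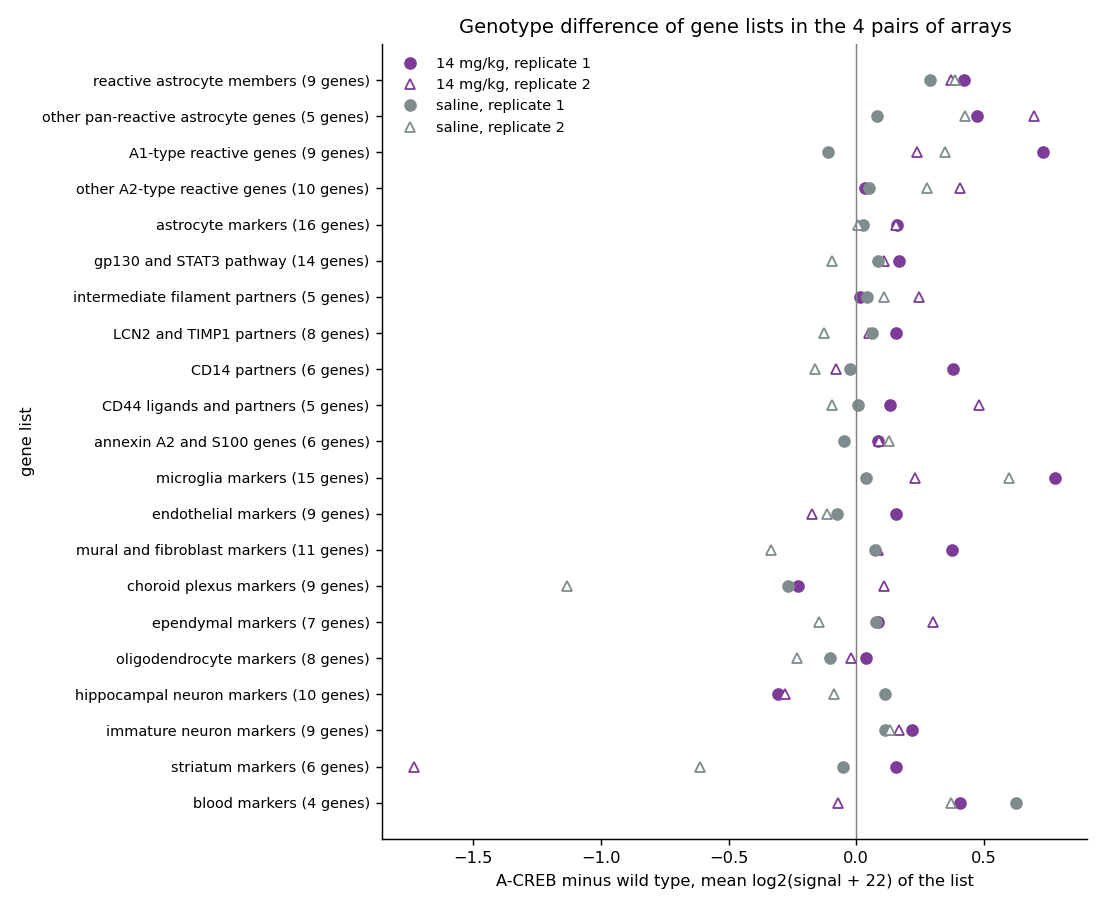
Mean A-CREB minus wild-type difference in log2(signal + 22) over the tested genes of each list, in each of the 4 pairs of arrays; purple marks are 14 mg/kg, grey marks saline, circles replicate 1 and triangles replicate 2. The 9 reactive astrocyte genes lie between 0.29 and 0.42 in all 4 pairs; choroid plexus and striatum lists lie as low as -1.13 and -1.73 in 1 pair each.

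Of 16 markers of astrocytes in any state, 10 were above 0 and 6 below, with a median of 0.05, against -0.02 over all tested genes. At an unadjusted p under 0.05 with the block 2 were higher and 0 lower, with 0 called, against a background of 2.69% higher. Higher in 4 of 4 pairs were 4, against 5.91%, and lower in 4 of 4 were 0, against 9.37%. Their summed signal ran from 99989.7 to 112367 on the 4 A-CREB arrays and from 97090.0 to 103797 on the 4 wild-type arrays. None was near 0: the dimmest, Sox9, averaged 532. Aqp4, the water channel of astrocyte endfeet, had 0.38 ± 0.14 with 4 of 4 pairs above 0, and Fabp7, a marker of radial glia and young astrocytes, 0.50 ± 0.27 with 4 of 4. The connexin genes Gja1 and Gjb6 had 0.18 ± 0.12 and 0.14 ± 0.13 with 3 of 4 each, and Aldh1l1, the lowest of the 16, had -0.18 ± 0.20 with 1 of 4. The 2 lists were not tested against each other.

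Markers of microglia were mostly higher in A-CREB, as the members were. Of 15, 14 were above 0 with a median of 0.45, 12 of them at an unadjusted p under 0.05 with the block, against a background of 2.69%, and 0 past the adjusted threshold. Higher in 4 of 4 pairs were 4, against 5.91%. Their summed signal ran from 21294 to 30696 in A-CREB and from 18080.0 to 21360.4 in wild type, and no marker was near 0, the dimmest being Itgam at a mean of 152. Trem2 had 1.29 ± 0.48 and Cd53 0.47 ± 0.14 with 3 of 4 pairs above 0, Aif1 0.57 ± 0.21 with 4 of 4, and Cd68 0.40 ± 0.16 with 4 of 4. Cd14 is made by these cells too, and their part in the difference of Cd14 and of the other members was not tested.

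Markers of hippocampal neurons were all bright enough to be tested, 10 of 10, and the dimmest, Prox1 of dentate granule cells, averaged 417. Their summed signal ran from 58116 to 68914 in A-CREB and from 59339 to 66509 in wild type. By gene, 4 of 10 were above 0 with a median of -0.08. With the block 3 were lower at an unadjusted p under 0.05 and 0 higher (background 3.04% lower), and 3 were lower in 4 of 4 pairs (background 9.37%), with 0 called. The mean over the list lay below wild type in both 14 mg/kg pairs, at -0.30 and -0.28, and was 0.11 and -0.09 in the saline pairs. The list mean was thus lower in A-CREB after 14 mg/kg, where the members were higher. C1ql2, described under the other observations, contributed a large part of that mean. The median of the 10 genes after 14 mg/kg was -0.12, with 2 above 0. The part of neurons in the members' differences was not tested.

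Striatum markers had 0 of 6 above 0 and a median of -0.57, and the brightest of them, Tac1, averaged 2285. Their summed signal ran from 2948 to 4027 on the A-CREB arrays. In wild type it reached 10256 on the 14 mg/kg array numbered 2. Without that array 17 of the 17 member probe sets were above 0 for the mean genotype difference, with a median of 0.38, or 14 of 17 and 0.28 with the replicate block. At an unadjusted p under 0.05 there were then 3 member probe sets (background 1.12%), or 5 with the block (3.45%), against the 5 and 10 given above. The counts were also 3 and 5 without A-CREB 14 mg/kg 1 (backgrounds 0.896% and 2.93%) and without wild-type saline 2 (0.833% and 2.41%), and over the 10 arrays left out in turn they ran from 3 to 6, or from 5 to 11 with the block, against backgrounds of 0.555% to 2.88% and of 2.06% to 6.36%. Choroid plexus markers had 0 of 9 above 0 and a median of -0.33, with sums of 27052 to 40399 in A-CREB and 31731 to 45399 in wild type. Blood markers had 4 of 4 above 0 with a median of 0.39, with sums of 801 to 1977 in A-CREB and 523 to 1126 in wild type. Endothelial markers (median -0.12, 4 of 9 above 0), mural and fibroblast markers (0.06, 8 of 11), ependymal markers (0.07, 6 of 7) and oligodendrocyte markers (-0.06, 1 of 8) held 0 calls. The part of these cell types in the members' differences was not tested.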

How the data were processed

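RNA of pooled hippocampi was measured on 10 arrays in 5 groups of 2. The deposited values are intensity, as MAS5 signals made with GCOS per the submitters' processing notes (versions not given in the sources used here). On the values, each array's 2% trimmed mean was 500.0. Of 45101 probe sets, 64 were controls; 34945 named 1 gene, 932 several and 9160 none in the platform annotation. Signals were taken as log2(signal + 22), 22 being the 20th percentile of all signals, and the upper 60% of non-control probe sets by mean signal (27023) were tested. A gene is its probe set with the highest mean.

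All 10 arrays were fitted on group means with limma 3.58.1 in R 4.3.3 (eBayes with an intensity trend, two-sided, Benjamini-Hochberg over all tested probe sets, threshold 0.05) in 7 comparisons. That the labels call the 2 arrays of a group replicates does not say what the numbers mark. Differences between the numbers correlated across all 10 pairs of groups (r from 0.520 to 0.631), and each of the 10 arrays correlated best with one of its own number, so the numbers were taken as pairing the arrays, from the data and not from the labels. The fit was tested on simulated data. Members and gene lists were chosen with earlier results of these data known. Genes named from the reactive, STAT3, astrocyte, microglia and neuron lists are the 4 with the smallest unadjusted p for the mean genotype difference, plus Stat3, Socs3 and Anxa2. Other lists are given by counts. Aldh1l1, Draxin, Tubb3, Stmn1 and the dimmest markers were named after their values were seen, as was the kainate response of named genes. List genes found in the annotation under neither their own symbol nor a RefSeq synonym were not used here.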

Additional observations from a re-analysis of the deposited data

Results flagged for a closer look

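Timp1 1460227_at was flagged because its genotype difference ran one way in every pair of one treatment and the other way in every pair of the other: it was 0.28 and 0.07 in the 2 pairs after 14 mg/kg, against -0.19 and -0.15 in the 2 pairs after saline. The share of all probe sets with such a pattern of signs was not counted, so the pattern may be common. The difference of the differences was 0.34 ± 0.85 (SE of the limma fit without the replicate block). That SE takes in the spread between the replicate numbers, and the difference was smaller than it. The difference did not pass the adjusted threshold with or without the block.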

How the results depend on the processing

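With all arrays kept, 0 members passed the adjusted threshold in any of the 7 comparisons under these alternatives: pseudocounts of 5.5 and 88, no filter or the upper 40%, quantile normalization, no intensity trend, 1 probe set per gene, only the groups of a comparison, and the replicate block. The lowest adjusted p of a member for the mean genotype difference was 0.587, with the block, and the block changed no call of a member. Over these settings the median of the 9 genes ran from 0.34 to 0.41 for the mean genotype difference. Quantile normalization moved the wild-type kainate median to 0.13, against 0.06, with or without the block. A pseudocount of 88 lowered the median for A-CREB at 14 mg/kg to 0.10, against 0.20, and the upper 40% gave 0.12 over 7 genes; the causes were not tested. Leaving out 1 array in turn, the medians ran from 0.26 to 0.51 for the mean genotype difference (0.28 to 0.51 with the block, and 0.33 without the A-CREB saline array numbered 2), from 0.010 to 0.45 after saline (0.20 to 0.56) and from 0.23 to 0.52 after 14 mg/kg (0.38 to 0.49). They ran from -0.19 to 0.40 for the difference of the differences (-0.090 to 0.22 with the block, and -0.058 without the A-CREB 14 mg/kg array numbered 1), and in the kainate comparisons from 0.035 to 0.76 for A-CREB at 14 mg/kg (0.028 to 0.57), from -0.14 to 0.39 for A-CREB at 18 mg/kg (0.0021 to 0.19) and from -0.10 to 0.31 for wild type (-0.027 to 0.24, and 0.14 and 0.17 without the wild-type 14 mg/kg arrays numbered 1 and 2). The 0.010 after saline and the 0.76 for A-CREB at 14 mg/kg were both without the A-CREB saline array numbered 2. In the fits without the block, leaving out an array also leaves the numbers unevenly spread over the groups. The count of members called stayed at 0, except for 1 in each of the 4 instances without 1 array and with the block that are given above for Lcn2 and Cd14. The count of all probe sets past the threshold ran from 3 to 198 for A-CREB at 14 mg/kg, from 2 to 97 for A-CREB at 18 mg/kg and from 3 to 91 for wild type over the settings with all arrays, highest with the block. The 2 arrays a group limit what can be called, and dim probe sets such as those of Timp1, Osmr 1418675_at and S100a10 1439348_at had the widest errors.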

Other observations

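Neuronal genes outside the reactive programme were read in the same way, with 0 called in limma for the genotype difference. C1ql2, a complement-like protein secreted by dentate granule cells, had a mean A-CREB minus wild-type difference of -0.91 ± 0.15, below 0 in 4 of 4 pairs: -1.48 after 14 mg/kg and -0.34 after saline. Its adjusted p with the block was 0.14. Wfs1, a marker of pyramidal cells of field CA1, had -0.36 ± 0.16, also below 0 in 4 of 4 pairs. Fibcd1 had -0.35 ± 0.25 and Camk2a, a kinase of excitatory neurons, -0.24 ± 0.15, each below 0 in 3 of 4. Of 9 markers of immature neurons, 6 were above 0 with a median of 0.12, among them Neurod1 at 0.50 ± 0.18, Dcx at 0.47 ± 0.30, Sox11 at 0.38 ± 0.19 and Eomes at 0.36 ± 0.24, each above 0 in 4 of 4 pairs (5.91% of all tested genes were). The other 3 were below 0: Draxin at -0.31 ± 0.33, in 4 of 4 pairs (9.37% of all tested genes were), Tubb3 at -0.13 ± 0.21 in 3 of 4 and Stmn1 at -0.06 ± 0.16 in 2 of 4.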
